A study of Mus musculus with 2 samples.

Results

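The levels of Gli1, Gli2, Gli3, Zic1, Zic2, Zic4, Zic5, Ptch1 and Sufu, regulators of Hedgehog signalling and of neural and limb patterning, were measured in RNA from whole mouse embryos. They were taken by Ensembl gene identifier from the deposited tables with no filter on their values, though the genes were chosen with earlier results of these data known. The 9 genes lay in 8 of the 34624 loci, where a locus is a single gene or a group of overlapping genes counted as 1 by the authors. Zic1 and Zic4 shared 1 locus, so their joint value cannot be given to either gene, and the other 7 genes each had a locus of their own. The study sequenced total RNA of untreated CBA/Ca × C57Bl/10 embryos at embryonic day 10.5, counted from the day of the plug as day 0.5, in 1 group with 2 replicates. There was no second condition, and the labels do not state how many embryos went into each replicate. The spread between replicates may therefore be partly technical.

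Hedgehog proteins such as Sonic hedgehog (Shh) bind the receptor Ptch1, which otherwise keeps the transducer Smo inactive. The signal ends on the Gli zinc finger factors: Sufu holds them in check in the cytoplasm, Gli2 acts mainly as an activator, Gli3 mainly as a repressor where no signal arrives, and Gli1 is an activator that is itself a target of the pathway. Ptch1 is also a target, which gives the pathway a negative feedback. Zic proteins carry zinc fingers related to those of the Gli factors and act in the dorsal neural tube, the cerebellum and the somites.

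Summed over loci, the deposited counts came to 18318181 reads in replicate 1 and 117522171 in replicate 2. The sums exceeded the library sizes that the deposited values imply, 13711737 reads in replicate 1 and 77921398 in replicate 2. Markers of embryonic red cells, heart, neural progenitors, limb mesenchyme and fetal liver all reached 1 RPKM (reads per kilobase of transcript, scaled to library size) in both replicates. The fetal liver marker Ttr lay in a locus joined with Dsg2 and Gm16090, so that value cannot be given to Ttr alone. Of 3 trophoblast markers none reached 1 RPKM, and both libraries lacked reads of Tpbpa and Psg21. Prl8a2, a decidual marker, stood at 1.23 and 6.38 RPKM in replicates 1 and 2, and Prl3c1, the other decidual marker listed, had 2 reads and 1 read. In a whole embryo, fewer cells of a type and less RNA per cell cannot be told apart.

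All 8 loci reached 1 RPKM in both replicates, as did 49.4% of all loci and 65.1% of protein-coding loci. Their mean levels ran from 8.83 RPKM for Gli1 to 111 RPKM for the joined locus of Zic1 and Zic4. Each of the 8 also reached 5 RPKM in both replicates, which 36.0% of all loci did, as well as 0.3 RPKM (57.9% of all loci) and 1 CPM, the read count scaled to the library's summed counts without a length (44.7% of all loci). Median RPKM over the 8 loci was 25.1 in replicate 1 and 15.7 in replicate 2, beside 8.38 and 5.52 over protein-coding loci.

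**Figure D1:**
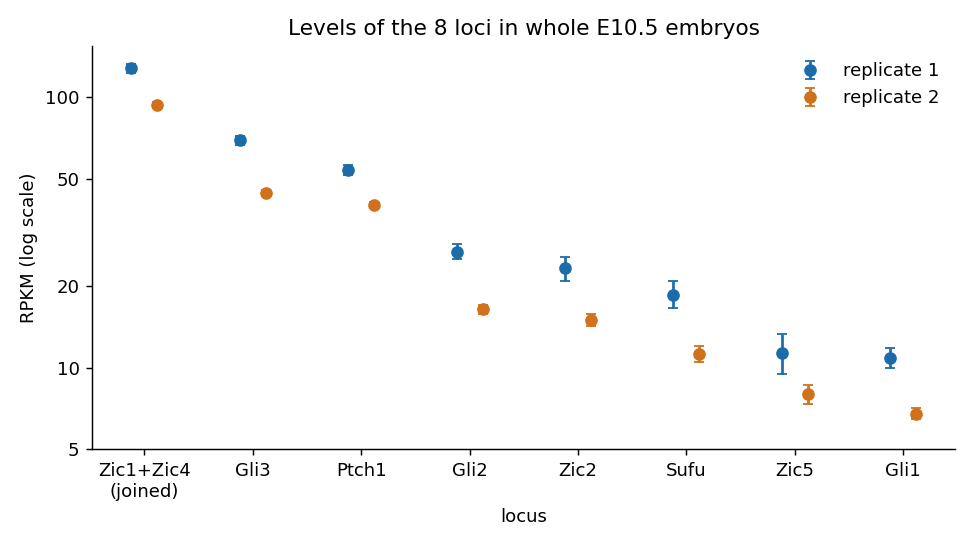
RPKM (log scale) of the 8 loci in replicate 1 (blue) and replicate 2 (orange), in order of their mean. Bars are exact Poisson 95% intervals of the read counts and cover counting error only. Every locus was lower in replicate 2, and the order of the 8 was the same in both libraries.

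Among the Gli factors, Gli3 was the highest and Gli1 the lowest in both libraries. Gli3, whose loss causes extra digits in the mouse, had 69.3 RPKM from 3271 reads in replicate 1 and 44.5 RPKM from 11819 reads in replicate 2. Gli2 had 26.9 RPKM in replicate 1 and 16.4 RPKM in replicate 2. Gli1, the pathway's own target, had 10.9 RPKM from 536 reads in replicate 1 and 6.76 RPKM from 1876 reads in replicate 2. The range of the 2 replicates of each gene lay apart from those of the other two.

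The share of each Gli gene in the summed Gli RPKM hardly moved between libraries. Gli3 made up 64.7% in replicate 1 and 65.7% in replicate 2. Gli2 made up 25.1% and 24.3%, and Gli1 made up 10.2% and 9.99%. The sum itself was 107 RPKM in replicate 1 and 67.7 RPKM in replicate 2. Gli3 stood 6.36-fold above Gli1 in replicate 1 and 6.58-fold in replicate 2, and 2.58-fold and 2.71-fold above Gli2.

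Differences between 2 loci were taken within a library as log2(RPKM + 1). A difference was called beyond the replicate spread if it had 1 direction in both libraries and its mean passed 2 times the SD of replicate 2 over replicate 1 log2 ratios among loci of like level. With 2 replicates of 1 group this rule gives no p-value. Gli3 exceeded Gli1 by 2.56 ± 0.01 (SD, n = 2) and Gli2 by 1.36 ± 0.03, and Gli2 exceeded Gli1 by 1.20 ± 0.04. All of these were beyond the spread, whose limit was 1.05 for the Gli1 pairs and 0.975 for Gli3 against Gli2. The lead of Gli2 over Gli1 depended on the length used to scale the reads: per kilobase of the longest GENCODE M21 transcript it was 0.08 and within the spread. Gli3 exceeded Gli1 by 1.50 on that scale, still beyond the spread but less than by deposited RPKM.

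Of the Zic loci described here, the joined locus of Zic1 and Zic4 stood far above Zic2 and Zic5. It had 128 RPKM from 2435 reads in replicate 1 and 94.1 RPKM from 11574 reads in replicate 2, over 15 listed transcripts. Zic2, which with Zic1 is needed for the dorsal midline of the neural tube, had 23.3 RPKM in replicate 1 and 15.0 RPKM in replicate 2. Zic5, the neighbour of Zic2 on its chromosome, had 11.3 RPKM from 141 reads in replicate 1 and 7.98 RPKM from 619 reads in replicate 2.

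Of the summed RPKM of these 3 loci, the joined locus held 78.7% in replicate 1 and 80.3% in replicate 2, Zic2 held 14.3% and 12.8%, and Zic5 held 6.95% and 6.81%. Zic1 and Zic4 together exceeded Zic2 by 2.49 ± 0.11 and Zic5 by 3.40 ± 0.01 on the log2 scale, both beyond the spread. Zic2 against Zic5 (0.91 ± 0.10, limit 1.06) was within it. Per kilobase of the longest transcript, Zic1 with Zic4 exceeded Zic2 by 1.50 and Zic2 exceeded Zic5 by 1.87, both beyond the spread.

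Zic1 and Zic4 lie on opposite strands in GENCODE M21 and overlap, whereas Zic2 and Zic5 do not overlap there and kept separate loci in the files. The sources do not state whether strand was used in counting, and reads of Zic1 and Zic4 cannot be told apart. The other genes that overlap a Gli gene or Ptch1 in that annotation were low or had no locus in the files. Arhgap9, on the strand opposite Gli1, had 0.711 RPKM from 15 reads in replicate 1 and 0.601 RPKM from 72 reads in replicate 2.

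Ptch1, the receptor and feedback target, stood behind Zic1 with Zic4 and Gli3. It had 54.1 RPKM from 2243 reads in replicate 1 and 40.02 RPKM from 7801 reads in replicate 2. Ptch1 and Smo, the transducer it inhibits, differed by 0.21 ± 0.06, within a limit of 1.14. Ptch1 exceeded its fellow pathway target Gli1 by 2.31 ± 0.13 and exceeded Hhip, a decoy that binds the ligands, by 2.88 ± 0.18, both beyond the spread.

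Sufu, the inhibitor that binds Gli proteins, had 18.7 RPKM from 294 reads in replicate 1 and 11.3 RPKM from 855 reads in replicate 2. Gli3 exceeded it by 1.87 ± 0.04, beyond the spread, and by 2.45 per kilobase of the longest transcript. Gli2 exceeded it by 0.51 ± 0.002 and Sufu exceeded Gli1 by 0.69 ± 0.05, both within the spread. Sufu also lay within the spread of Kif7, a kinesin of the cilium tip that acts beside it (0.15 ± 0.01, Kif7 joined with another gene), and below Smo by more than the spread (-1.40 ± 0.12).

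**Figure D2:**
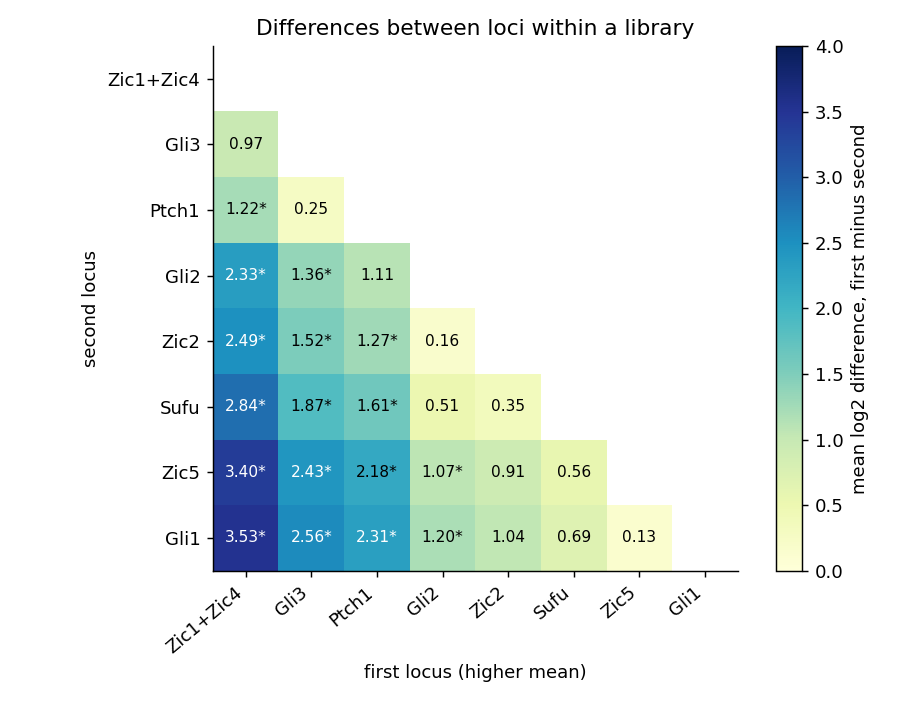
Mean difference in log2(RPKM + 1) over the 2 libraries for all 28 pairs of the 8 loci, first (column) minus second (row). An asterisk marks the 17 pairs beyond the replicate spread. No pair of neighbours in the order, along the diagonal, carries one.

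In falling order the loci were Zic1 with Zic4, Gli3, Ptch1, Gli2, Zic2, Sufu, Zic5 and Gli1, in both libraries. None of the 7 neighbouring pairs in that order differed beyond the replicate spread. The widest neighbour steps were Ptch1 over Gli2 (1.11 ± 0.18, limit 1.14, passed by the 1.23 of replicate 2 alone) and Zic1 with Zic4 over Gli3 (0.97 ± 0.13, limit 1.08). The narrowest were Zic5 over Gli1 (0.13 ± 0.11) and Gli2 over Zic2 (0.16 ± 0.06). Of all 28 pairs, 17 were beyond the spread, a share no higher than the 66.7% over all pairs of loci that reached 1 RPKM in both replicates.

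The length behind the deposited RPKM bears on this order. Across the 1682 protein-coding single-transcript loci with over 200 reads, the length implied by reads and RPKM lay within 5% of the M21 length without the 3′ untranslated region for 81.9%, and within 5% of the full length for 7.07%. Whether the counts also left out reads of the 3′ untranslated region was not tested. The longest M21 transcript of a locus means the longest of its listed transcripts that M21 holds. M21 held 1 of 4 listed transcripts for Ptch1, 1 of 2 for Gli1, 2 of 3 for Zic2 and 6 of 7 for Sufu. It held all of those listed for the other loci. For Zic5 the implied length was 910 bases in replicate 1 and 996 in replicate 2. Its longest M21 transcript has 4767 bases, or 2229 without the 3′ untranslated region. For Sufu the implied length was 1149 and 974 bases, against 4522 bases, or 1662 without that region. For Gli1 it was 3587 and 3560 bases, against a longest transcript of 4057 bases, or 3892 without that region. Dividing the reads of Gli1 by that transcript gave 9.64 RPKM of full length in replicate 1 and 5.93 in replicate 2. The same for Sufu gave 4.74 and 2.43, and for Zic5 it gave 2.16 and 1.67. On this scale Gli1 stood above Sufu and Zic5 in both libraries, by 0.95 (within the spread) and 1.57 (beyond it) on the log2 scale. The full length holds the 3′ untranslated region, and whether this order holds for lengths without that region was not tested. Zic1 with Zic4, Gli3 and Ptch1 kept the first 3 places in the same order. For the joined locus, the reads of 2 genes were divided by 1 transcript of 5606 bases. Its lead over Gli3 was then 0.30, within the spread. Ptch1 exceeded Gli1 by 1.03 on this scale and Gli2 exceeded Sufu by 1.04, both beyond the spread. Comparisons with genes outside the 8 loci were made on deposited RPKM only.

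**Figure D3:**
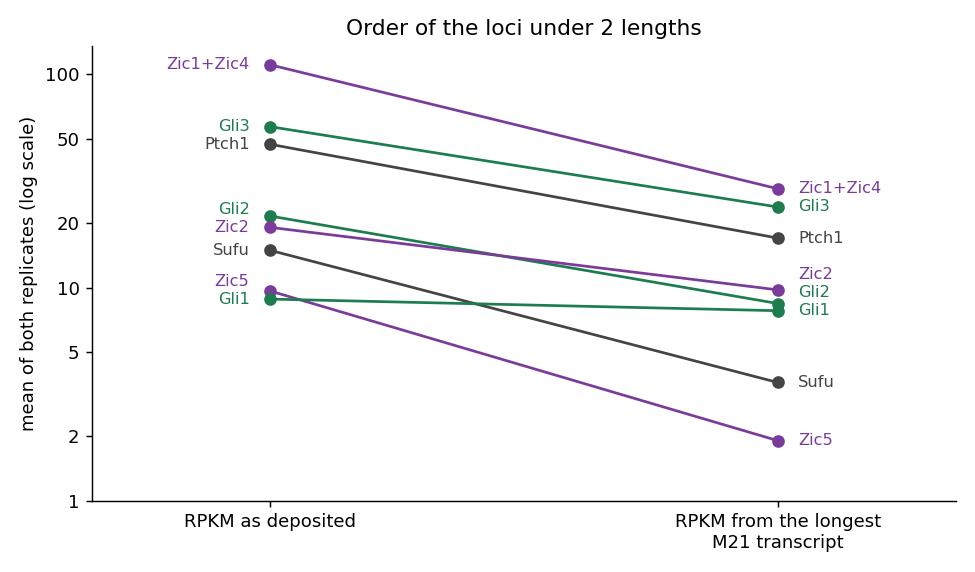
Mean of both replicates (log scale) for the 8 loci, left as deposited RPKM and right as RPKM from the length of the longest M21 transcript and the implied library size. Zic genes are purple, Gli genes green and the others grey; Gli1 goes from the lowest place to the sixth, above Sufu and Zic5.

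All 8 loci were lower in replicate 2, as were 79.4% of the 19217 loci that reached 1 RPKM in either replicate. Their log2 ratios of replicate 2 over replicate 1 ran from -0.68 for Sufu to -0.43 for Ptch1, with a median of -0.61, beside -0.39 over all those loci. None was past 2-fold, where 9.16% of all those loci were lower and 3.11% higher by that much. Higher loci differed less from replicate to replicate in this direction, so each gene was also placed among the loci of its own level. Gli3 lay at percentile 10.8 of the 917 loci of its level and the joined Zic1 and Zic4 locus at percentile 13.1, both towards the lower side of replicate 2. Zic5 lay at percentile 59.2, and the other 5 loci lay between percentiles 23.2 and 41.1. Over the 3 embryonic red cell markers the median log2 ratio was 1.33, and over the 2 fetal liver markers, 1 in a joined locus, it was -1.55. It was 0.32 over the heart markers, 0.14 over those of neural progenitors and -0.37 over those of limb mesenchyme. Over the floor plate and notochord markers it was -0.91. Over the 12 housekeeping loci it was 0.64, with 3 of them past 2-fold higher in replicate 2 and 2 lower. The part of such differences in these values was not tested.

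**Figure D4:**
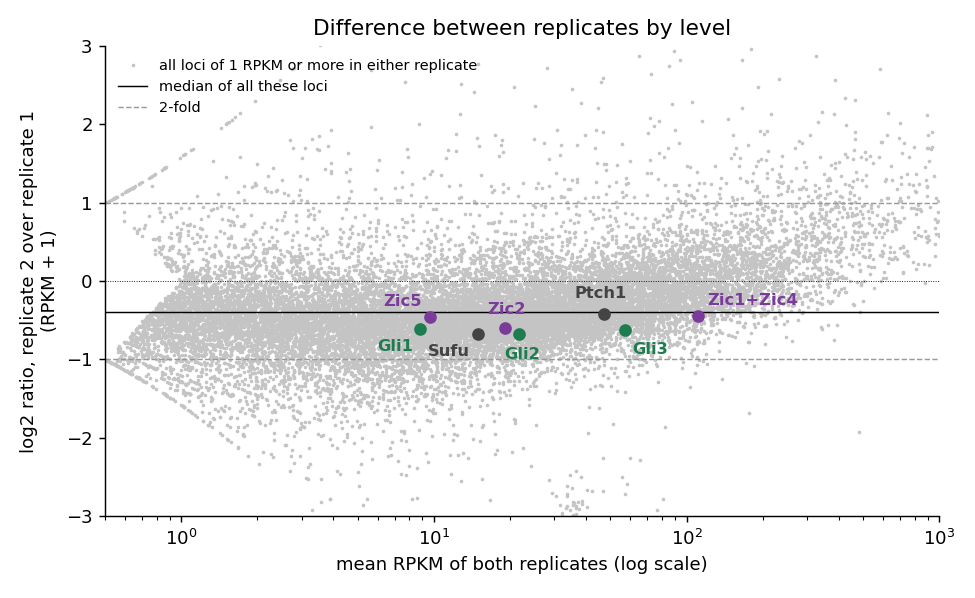
Log2 ratio of replicate 2 over replicate 1 on the RPKM + 1 scale against mean RPKM (log scale). Grey points are loci of 1 RPKM or more in either replicate, and coloured points are the 8 loci. All 8 lie between -0.68 and -0.43, below the median of those loci of -0.39 (solid line), and inside the 2-fold lines (dashed).

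The length behind the RPKM was not the same in both libraries for some genes. For Ptch1 the length in replicate 2 was 0.827 times that in replicate 1, for Sufu it was 0.848 times, and for Zic1 with Zic4 it was 1.14 times. CPM uses no length and takes the summed counts as library size, so both choices differ from RPKM. In CPM, Sufu had 16.0 in replicate 1 and 7.28 in replicate 2, a log2 ratio of -1.14. Gli2 had 53.7 CPM in replicate 1 and 26.5 CPM in replicate 2, a log2 ratio of -1.02. These 2 were past 2-fold on that scale, where 24.0% of the 19045 loci with 1 RPKM in either replicate and reads in both were lower by as much, with a median log2 ratio of -0.64. With the implied library sizes and 1 common length per locus, 0 of the 8 loci were past 2-fold. Sufu then had a log2 ratio of -0.97 and Gli2 of -0.85, and the median of the 8 was -0.68, beside -0.47 over those 19045 loci. Ptch1, the least changed of the 8 by deposited RPKM, then had -0.71, and Zic1 with Zic4 was the least changed with -0.26.

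Counting error was widest for Zic5. The exact Poisson 95% interval of this locus, which had the fewest reads, ran from 119 to 166 reads in replicate 1 and from 571 to 670 in replicate 2, a half-width of 16.9% and 7.96%. For Gli3 the half-width was 3.44% in replicate 1 and 1.81% in replicate 2. Such intervals cover counting error only and take each read as independent. That could not be checked, as the libraries carry no molecular identifiers in the sources used here.

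The rest of the pathway was present at most of its steps. Of 32 listed loci for ligands, receptors, transducers and Gli-related factors, 29 reached 1 RPKM in both replicates. These 29 included the 5 loci of Gli1, Gli2, Gli3, Ptch1 and Sufu. Without those 5, 24 of 27 did, beside 49.4% of all loci and 65.1% of protein-coding loci. Ligand and release genes passed at 3 of 6 loci, near the share of all loci. Shh, in a locus joined with 2 other identifiers, had 19.7 RPKM in replicate 1 and 10.5 RPKM in replicate 2. Indian hedgehog (Ihh) had 8 reads and 25 reads, and desert hedgehog (Dhh) had 15 and 22, all under 1 RPKM. Hhat, which attaches the lipid that makes the ligands active, had 11.7 RPKM in replicate 1 and 7.08 RPKM in replicate 2. Disp1, which releases the ligands from the cell, was listed with 0 reads in both replicates. All 12 housekeeping loci looked up had reads, which does not show whether the Disp1 locus could collect reads. That was not tested, so the 0 cannot be read as absence of its RNA. For a locus that can collect reads, a count of 0 allows up to 0.164 CPM in replicate 1 and 0.0255 CPM in replicate 2.

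Reception genes passed at all 7 listed loci (median 17.9 RPKM in replicate 1 and 13.5 RPKM in replicate 2). Ptch1 was the highest of them, followed by Smo with 47.9 RPKM in replicate 1 and 33.4 RPKM in replicate 2, and Hhip was the lowest of the 7 with 7.21 and 4.10 RPKM. Transduction genes passed at all 13 loci (median 35.2 and 32.1 RPKM). Beside both lists stand 49.4% of all loci and 65.1% of protein-coding loci. Cul3, the scaffold of a ubiquitin ligase that acts on Gli proteins, was highest with 347 RPKM in replicate 1 and 468 RPKM in replicate 2, then the kinase Csnk1a1 with 294 and 304 RPKM. Stk36 was lowest with 4.71 and 2.52 RPKM. Sufu stood below the median of this list in both libraries.

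All 6 loci of Gli and Glis factors passed, with Gli1, Gli2 and Gli3 among them. Glis2, a zinc finger relative, had 55.8 RPKM in replicate 1 and 34.2 RPKM in replicate 2 in a locus joined with Pam16, and Glis1 was lowest with 1.73 and 1.70 RPKM, also joined. Pathway targets passed at 10 of 11 listed loci, with Gli1, Ptch1 and Hhip, already counted above, among them. The cyclin Ccnd1 (101 and 99.9 RPKM) and Mycn (69.5 and 43.4 RPKM), which many other signals also control, were highest. Olig2, a factor of motor neuron progenitors, had 1.81 RPKM in replicate 1 and 0.976 RPKM in replicate 2 and did not pass. Genes of the dorsal neural tube, where Zic genes act, passed at 8 of 10 loci. Genes of the Shh and Gli3 circuit of the limb bud passed at 9 of 10, with Shh and Gli3 counted again. Beside these lists, 49.4% of all loci and 65.1% of protein-coding loci passed.

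**Figure D5:**
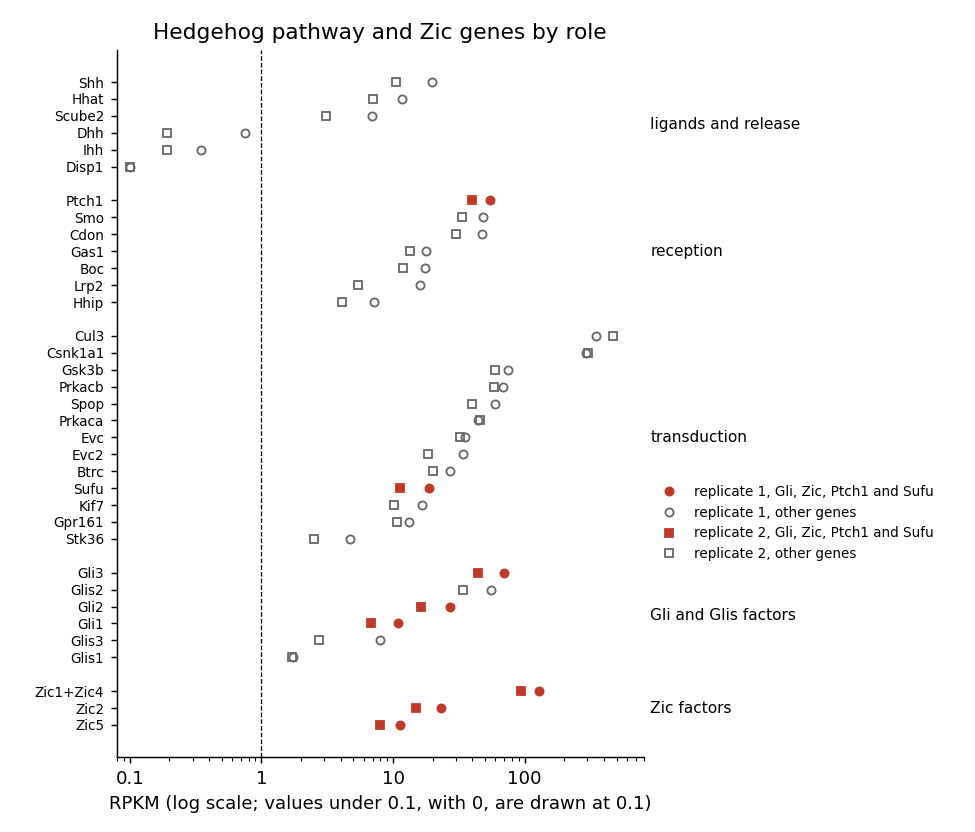
RPKM (log scale) of Hedgehog pathway and Zic genes by role, in replicate 1 (circles) and replicate 2 (squares); filled red symbols are the Gli and Zic genes described here with Ptch1 and Sufu. The dashed line marks 1 RPKM. Ihh, Dhh and Disp1 lie left of it in both replicates, and Cul3 and Csnk1a1 are the highest.

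Promoter windows from RefSeq (build GRCm38.p6, 250 bases before to 50 bases after the annotated start) were found for 7 of the 9 genes, not for Gli1 and Zic2. The files were made on build mm9, so these windows serve as sequence only. They are printed for the highest Gli gene, for the receptor, and for the Zic genes that share a locus, each from 5′ to 3′ on the strand of its gene, with CG dinucleotides in capitals. The Gli3 window is chr13:15463473-15463772 on the plus strand, and that of Ptch1 is chr13:63565686-63565985 on the minus strand. The Zic1 window is chr9:91365719-91366018 on the minus strand, and that of Zic4 is chr9:91368722-91369021 on the plus strand.
Gli3: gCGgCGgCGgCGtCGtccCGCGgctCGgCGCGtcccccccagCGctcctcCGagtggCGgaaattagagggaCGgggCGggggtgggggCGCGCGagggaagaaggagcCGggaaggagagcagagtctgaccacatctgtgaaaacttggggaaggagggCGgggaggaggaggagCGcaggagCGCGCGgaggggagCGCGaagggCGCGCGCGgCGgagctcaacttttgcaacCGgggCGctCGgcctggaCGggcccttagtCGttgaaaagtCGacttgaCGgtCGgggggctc
Ptch1: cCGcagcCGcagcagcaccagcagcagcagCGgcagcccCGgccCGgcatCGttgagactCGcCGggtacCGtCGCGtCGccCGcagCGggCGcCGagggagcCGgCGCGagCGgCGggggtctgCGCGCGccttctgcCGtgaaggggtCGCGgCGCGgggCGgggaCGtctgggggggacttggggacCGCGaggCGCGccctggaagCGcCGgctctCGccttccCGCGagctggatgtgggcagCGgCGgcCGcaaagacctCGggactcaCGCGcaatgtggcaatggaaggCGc
Zic1: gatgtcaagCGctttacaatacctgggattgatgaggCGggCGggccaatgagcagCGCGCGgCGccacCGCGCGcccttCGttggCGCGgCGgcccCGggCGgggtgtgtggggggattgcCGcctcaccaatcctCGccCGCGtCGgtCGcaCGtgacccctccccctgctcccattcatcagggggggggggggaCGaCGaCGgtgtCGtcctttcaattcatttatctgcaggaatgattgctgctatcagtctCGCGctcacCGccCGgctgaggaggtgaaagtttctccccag
Zic4: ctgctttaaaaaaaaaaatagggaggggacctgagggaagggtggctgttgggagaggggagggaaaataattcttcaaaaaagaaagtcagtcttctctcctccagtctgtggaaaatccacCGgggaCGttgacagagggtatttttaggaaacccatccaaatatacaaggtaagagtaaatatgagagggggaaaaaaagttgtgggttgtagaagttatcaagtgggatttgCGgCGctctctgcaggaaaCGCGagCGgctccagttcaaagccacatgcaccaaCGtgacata

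The window of Ptch1 held 47 CG dinucleotides, that of Gli3 held 39 and that of Zic1 held 31, against a median of 7 over 32851 windows of the same length. These counts lay at percentiles 98.6, 95.6 and 89.4 of all windows. The Zic4 window held 8, at percentile 51.4, with a GC content of 46.0%, while Ptch1 had 76.3%. The letters GACCACCCA, the consensus bound by Gli proteins, occurred on neither strand in the 7 windows, and 0.253% of all windows held them. TATAAA occurred on neither strand in the 7 windows either, and 13.6% of all windows held it.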

How the data were processed

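Total RNA of whole embryos was extracted with TRI reagent and sequenced from standard Illumina libraries, per the labels' protocols. TopHat and build mm9 are named, without versions, per the submitters' processing notes. No source used here names the counter, annotation release, filters or strand use.

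The authors deposited RPKM and whole-number read counts for each row of Ensembl identifiers, per the file headers. RPKM was the main unit. Rows with the same identifiers were summed, giving 34624 loci, 2473 of them joined. Symbols were matched by identifier (32642 of 37681, 86.6%).

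The genes and lists were chosen with earlier results of these data known. Named genes were the 9 regulators, those joined to them, every ligand, Smo, Hhip, and the highest 2 and lowest loci of each role in the Hedgehog, Zic and target lists. Kif7, Arhgap9 and the marker genes were named outside this rule, after their values were seen. Some genes of the lists are not reported here and were left out of the lists' counts. A housekeeping list and the length comparisons were added after seeing the files.

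Log ratios used log2(RPKM + 1). The SD between replicates was taken in 20 level bins of loci with a mean of 1 RPKM or more. The 1 group allowed no test between conditions and no count model was fitted. Implied lengths used the library size at which single-transcript loci of up to 600 bases gave their M21 length. All of the 2715 single-transcript loci with over 200 reads had the same ratio of reads per RPKM between replicates (5.68, within 1%), as had 23.2% of multi-transcript loci. The methods were tested on simulated data with a smaller spread between replicates than these libraries have and no shift common to a library. Python 3.11.15, numpy 2.4.6, pandas 2.3.3 and scipy 1.17.1 were used. Alternatives covered the minimum, pseudocount, filter, scaling, length and each replicate left out.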

Additional observations from a re-analysis of the deposited data

How the results depend on the processing

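All 8 loci passed under each of the 5 alternatives tried (0.3 RPKM, 5 RPKM, 1 CPM, and either replicate alone), and 24 to 29 of the 32 listed pathway loci did. The 17 of 28 pairs beyond the spread became 15 to 19 under the alternatives that kept all 8 loci, and 17 with either replicate alone. Over loci with a single identifier, which leave out Zic1 and Zic4, 10 of 21 pairs were called. Of the 7 pairs that neighbour in the order by deposited RPKM, 0 to 1 were called with either replicate alone (Ptch1 over Gli2 in replicate 2). With replicate 2 scaled to a median log2 ratio of 0 the number was 1 (Ptch1 over Gli2), and with 1 common length per locus it was 1 (Zic1 with Zic4 over Gli3). Per kilobase of the longest M21 transcript it was 3 (Ptch1 and Gli2, Zic2 and Sufu, Zic5 and Gli1), none of them neighbours in the order of that scale. No pair of neighbours in the order of that scale was called. The differences of Gli2 over Zic2 (-0.22), Sufu over Gli1 (-0.95) and Zic5 over Gli1 (-1.57) turned round. On that scale Zic1 with Zic4 over Ptch1, Ptch1 over Zic2 and Gli2 over Gli1 were no longer called, and 4 other pairs became called. The cause of these shifts was not tested beyond the change of length or scale itself. Gli2 over Zic5 was lost with a pseudocount of 0.1, over loci with a single identifier and in replicate 2 alone, and Zic1 with Zic4 over Ptch1 with that pseudocount. The median log2 ratio between replicates of the 8 loci was -0.20 after the scaling, which shifts all loci by 0.43, and -0.85 in CPM. Median log2(RPKM + 1) was 4.06 to 4.70 in single replicates. No paired analysis was possible because there is only 1 group. Replicate 1 has fewer reads, which limits Zic5 most.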
